A study of Mus musculus with 47 samples.

Results

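The major histocompatibility complex (MHC) class I genes described here are 10 named genes of antigen presentation, measured by RNA sequencing in mouse liver. They were taken by symbol from the deposited table of 20320 genes: the heavy chain genes H2-K1, H2-D1, H2-Q4, H2-Q7, H2-Q10 and H2-T23, the light chain gene B2m, and the peptide supply genes Tap1, Psmb8 and Psmb9. All 10 were in the table, and all 10 passed the filter on low counts that left 16650 genes for testing. The study compared 3 inbred strains, each labelled wild type, in both sexes and on both diets: the obese, diabetes-prone NZO/HlLtJ, the wild-derived CAST/EiJ and the common laboratory strain C57BL/6J. Diets with 44% fat or 10% fat, both with added fiber, began at week 6 of age, and livers were taken at week 15. The series' design text calls the diets high fat, high sugar and control. There were 3 libraries of CAST/EiJ males on 10% fat and 4 of each other group among the 12 of strain, sex and diet, which gives 16 NZO/HlLtJ, 15 CAST/EiJ and 16 C57BL/6J libraries. Whether every library is a different mouse is not said in the labels, and p-values then cover only the spread among libraries.

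Class I molecules carry short peptides from inside the cell to its surface, where CD8 T cells and natural killer (NK) cells read them. Proteasomes cut proteins into peptides, the TAP transporter moves these into the endoplasmic reticulum, and there each binds a heavy chain paired with beta-2 microglobulin. Interferons induce most of these genes. H2-K1 and H2-D1 encode classical heavy chains, which present peptides to CD8 T cells. H2-Q4, H2-Q7, H2-Q10 and H2-T23 encode non-classical ones: H2-Q7 gives rise to the Qa-2 antigen, H2-Q10 to a secreted class I protein made mainly by the liver, and H2-T23 to Qa-1, a ligand of NK cell receptors. B2m encodes beta-2 microglobulin, Tap1 one chain of the transporter, and Psmb8 and Psmb9 catalytic subunits of the immunoproteasome. The heavy chain genes are among the most variable genes between mouse strains, and the Q region holds different sets of genes in different strains.

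B2m lay on chromosome 2 (chr2:122147686-122153083, plus strand, GRCm38) and the other 9 members on chromosome 17, inside the MHC. H2-K1 (chr17:33996017-34000347, minus strand), Psmb9 (chr17:34181987-34187764, minus), Tap1 (chr17:34187553-34197225, plus) and Psmb8 (chr17:34197721-34201454, plus) lay on one side. H2-D1 (chr17:35262730-35267499, plus), H2-Q4 (chr17:35379617-35385290, plus), H2-Q7 (chr17:35439155-35443773, plus), H2-Q10 (chr17:35470089-35474563, plus) and H2-T23 (chr17:36029773-36032855, minus) followed at higher coordinates. All 10 are protein-coding gene models. The promoters of the 5 heavy chain members with the largest strain differences among the 10 genes are shown so that their letters can be compared. Each line gives the 250 bases before the RefSeq start of the gene on its own strand (RefSeq, GRCm38.p6, the C57BL/6J sequence), at chr17:34000348-34000597 (minus), chr17:35262844-35263093 (plus), chr17:35379367-35379616 (plus), chr17:35438905-35439154 (plus) and chr17:35469839-35470088 (plus) in the order printed. Capitals mark the letters GGGATTNCC, as in NF-kappa-B-type enhancers, and GAANNGAAA, as in interferon-stimulated response elements, found on either strand without overlapping each other.
H2-K1: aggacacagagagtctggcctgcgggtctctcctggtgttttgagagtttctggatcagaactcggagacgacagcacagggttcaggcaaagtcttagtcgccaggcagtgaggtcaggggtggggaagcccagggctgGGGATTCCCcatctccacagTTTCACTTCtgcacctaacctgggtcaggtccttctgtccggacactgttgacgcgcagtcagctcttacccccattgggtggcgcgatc
H2-D1: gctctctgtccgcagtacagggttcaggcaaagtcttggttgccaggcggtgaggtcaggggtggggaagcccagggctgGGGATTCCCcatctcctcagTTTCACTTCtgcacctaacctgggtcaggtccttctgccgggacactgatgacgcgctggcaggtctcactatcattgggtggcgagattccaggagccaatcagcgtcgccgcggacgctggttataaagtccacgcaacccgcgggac
H2-Q4: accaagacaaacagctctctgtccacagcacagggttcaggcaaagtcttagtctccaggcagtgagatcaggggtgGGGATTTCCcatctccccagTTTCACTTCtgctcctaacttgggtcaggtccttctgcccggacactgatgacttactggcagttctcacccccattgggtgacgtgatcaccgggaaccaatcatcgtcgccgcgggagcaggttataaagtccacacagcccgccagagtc
H2-Q7: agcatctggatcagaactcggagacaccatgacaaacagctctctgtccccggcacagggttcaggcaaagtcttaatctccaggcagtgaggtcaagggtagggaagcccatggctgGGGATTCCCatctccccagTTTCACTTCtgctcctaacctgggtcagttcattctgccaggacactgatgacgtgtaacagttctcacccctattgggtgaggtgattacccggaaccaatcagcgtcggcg
H2-Q10: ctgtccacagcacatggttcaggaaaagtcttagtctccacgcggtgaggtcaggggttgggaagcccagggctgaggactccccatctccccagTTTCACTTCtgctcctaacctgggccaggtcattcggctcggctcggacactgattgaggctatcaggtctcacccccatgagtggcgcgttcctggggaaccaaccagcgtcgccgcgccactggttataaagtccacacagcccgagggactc
The NF-kappa-B-type letters stood in the windows of H2-K1, H2-D1, H2-Q4 and H2-Q7, but not in that of H2-Q10. All 5 windows held the interferon-type letters, read on the opposite strand. Among the 27025 promoters of this length in the RefSeq table, 0.855% held the NF-kappa-B-type letters and 6.34% the interferon-type letters; among the 11 heavy chain promoters in it, 5 and 8 did. The letters of these motifs were chosen after the sequences had been read, and a match describes the C57BL/6J sequence and no binding. In pairwise alignment of whole windows, gaps counted as positions that differ. The windows of H2-D1 and H2-Q10 were identical at 79.9% of positions, those of H2-D1 and H2-Q4 at 75.9%, and those of H2-K1 and H2-D1 at 54.8%. The windows were not shifted to a common site: the NF-kappa-B-type letters began 110 bases before the start in H2-K1 and 170 in H2-D1. Unmatched window ends thus lower the percentage, which does not rank the likeness of the stretches that 2 windows have in common.

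Libraries held 21.6 to 47.8 M counts, on average 39.9 M in NZO/HlLtJ, 37.8 M in CAST/EiJ and 40.8 M in C57BL/6J. The hepatocyte markers together reached 77474 to 148699 CPM (counts per 1 M counts, with library sizes scaled by TMM) in NZO/HlLtJ, 63593 to 137613 CPM in CAST/EiJ and 98034 to 127643 CPM in C57BL/6J, and none was at 0 in any library. One library stood apart in depth and in several members: NZO/HlLtJ male 44% fat replicate 1 had the fewest counts and was lowest of its strain for the 6 heavy chain genes, Psmb8 and Psmb9; the members called between strains numbered the same without it. Pancreatic acinar transcripts, read from Cpa1 at 20 CPM or more, were present in 5 libraries, and results are given without these where a call changed. They were replicates 1 and 2 of C57BL/6J females on 44% fat, replicates 2 and 3 of C57BL/6J males on 10% fat, and replicate 2 of CAST/EiJ females on 44% fat.

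For each heavy chain member the largest difference between strains exceeded its largest difference by sex or diet. C57BL/6J livers had the most H2-K1, H2-D1, H2-Q4 and H2-Q7 transcript, NZO/HlLtJ livers had the most H2-Q10, and CAST/EiJ livers had the least of every heavy chain member except H2-Q7. The deposited counts were made on GRCm38, the C57BL/6J genome. Alleles that differ from it can lose reads or pass them to a sister gene, and the part of this in the strain differences was not tested.

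**Figure D1:**
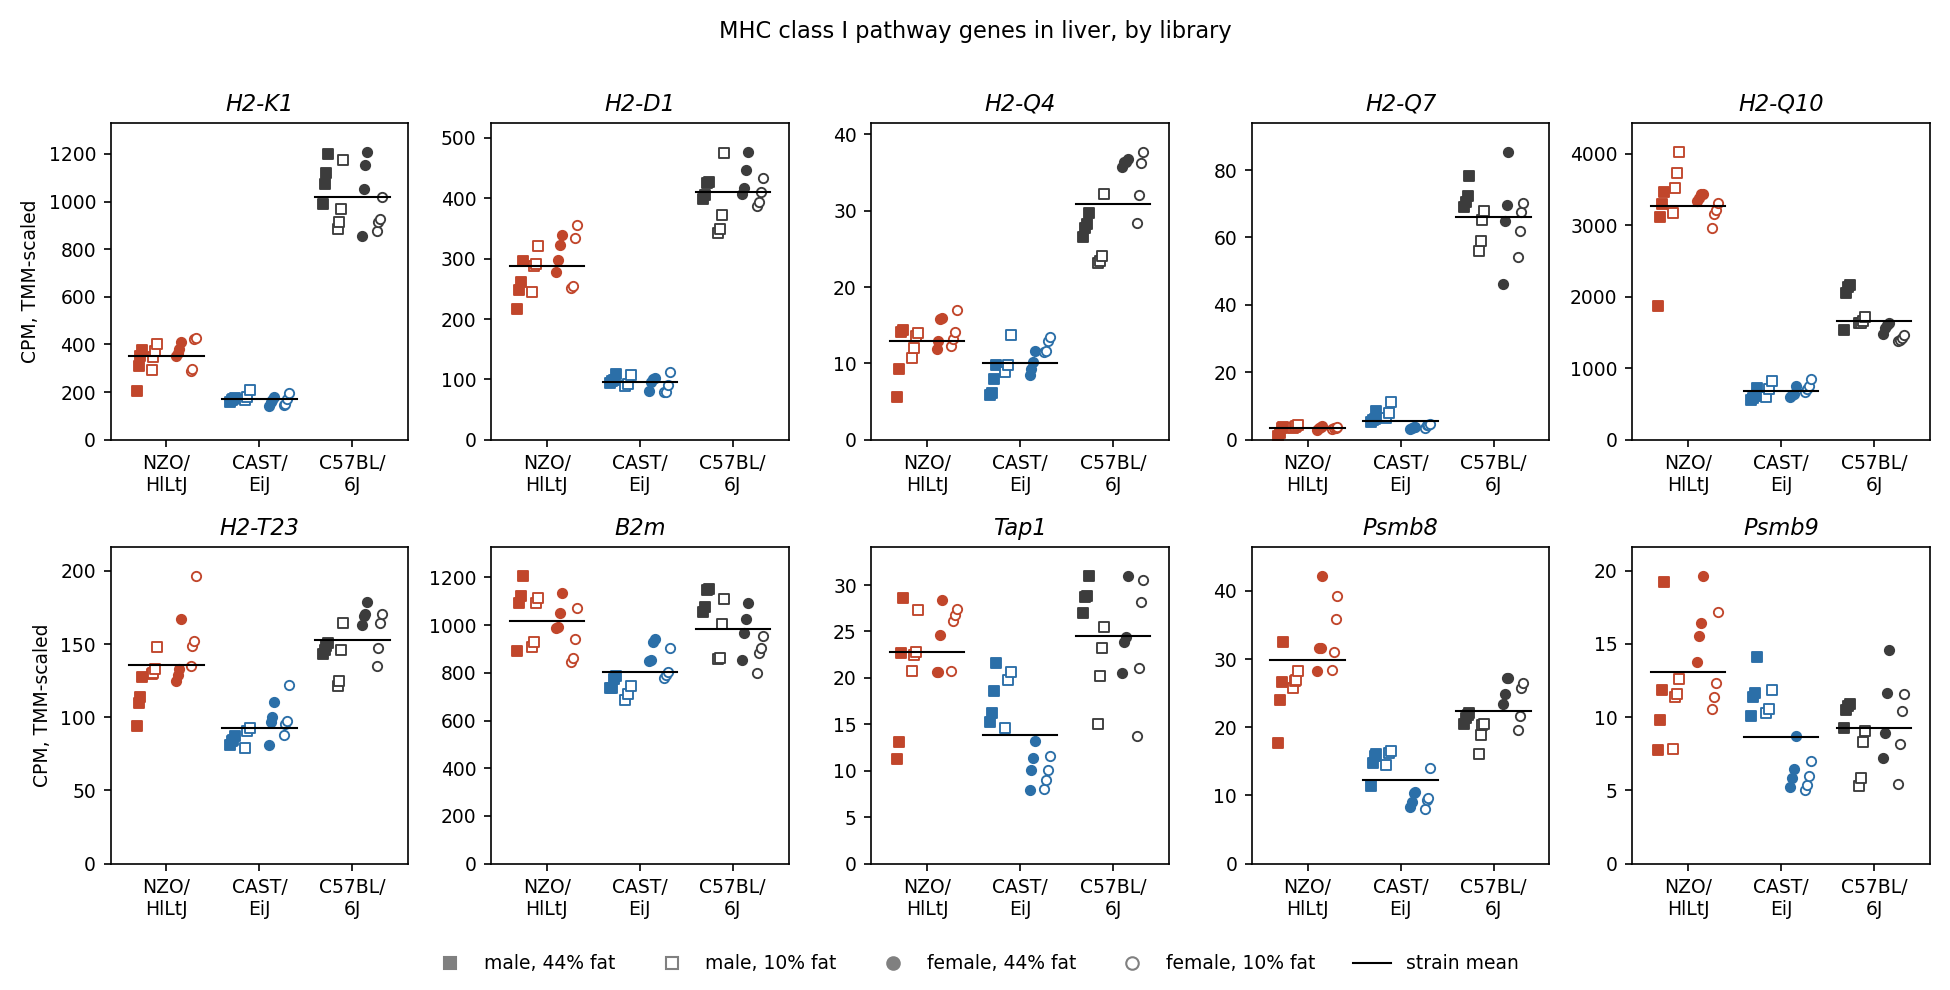
Level of each of the 10 genes in every library, in TMM-scaled CPM on linear axes from 0, with strains along the x axis, squares for males, circles for females, filled symbols for 44% fat, open symbols for 10% fat and a line at the strain mean. H2-K1, H2-Q4 and H2-Q7 of C57BL/6J lay above all libraries of the other strains, and H2-Q10 of CAST/EiJ below all libraries of the other strains.

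In CAST/EiJ livers 9 of the 10 members were lower than in C57BL/6J livers, from H2-Q7 at 12.4-fold lower to B2m at 1.24-fold lower, and Psmb9 alone did not pass the test. By edgeR's quasi-likelihood test 67.9% of all genes differed between these strains, 35.3% of all genes being lower in CAST/EiJ. The members' median log2 fold change was −1.07, against −0.02 over all genes tested. Of the classical heavy chains, H2-K1 ran from 143 over a median of 167 to 210.0 CPM in the 15 CAST/EiJ libraries and from 856 over 1005 to 1208 CPM in the 16 C57BL/6J libraries. No library of one strain reached the range of the other, and H2-K1 was 5.99-fold lower in CAST/EiJ (log2 fold change −2.58, SE 0.08, edgeR adjusted p = 5.89e-29). H2-D1 ran from 79.0 over 95.4 to 112 CPM in CAST/EiJ and from 343 over 409 to 477 CPM in C57BL/6J (−2.11, SE 0.06, edgeR adjusted p = 5.20e-29).

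The non-classical heavy chains were lower in CAST/EiJ as well. H2-Q7 ran from 3.06 over 4.69 to 11.3 CPM in CAST/EiJ and from 46.1 over 67.8 to 85.4 CPM in C57BL/6J (−3.63, SE 0.10, edgeR adjusted p = 3.08e-29). H2-Q4, a heavy chain of the same Q region, lay between 5.82 and 13.8 CPM in CAST/EiJ and between 23.1 and 37.7 CPM in C57BL/6J (−1.62, SE 0.09, edgeR adjusted p = 7.15e-19). H2-Q10 lay between 555 and 856 CPM in CAST/EiJ and between 1379 and 2163 CPM in C57BL/6J (−1.27, SE 0.06, edgeR adjusted p = 6.67e-21). Library ranges of H2-K1, H2-D1, H2-Q4, H2-Q7 and H2-Q10 did not overlap, which held for 12.3% of all genes and, in the lower direction, for 6.08%. H2-T23 ranges met at 122 CPM in CAST/EiJ and 121 CPM in C57BL/6J (−0.72, SE 0.06, edgeR adjusted p = 1.25e-14).

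Of the light chain and the peptide supply genes, B2m, Tap1 and Psmb8 were lower in CAST/EiJ. B2m lay between 688 and 944 CPM in CAST/EiJ and between 801 and 1151 CPM in C57BL/6J (−0.31, SE 0.05, edgeR adjusted p = 4.52e-07). Tap1 averaged 13.9 ± 4.65 CPM in CAST/EiJ (SD, n = 15) and 24.6 ± 5.35 CPM in C57BL/6J (SD, n = 16; −0.85, SE 0.11, edgeR adjusted p = 1.80e-08). Psmb8 averaged 12.3 ± 3.18 CPM in CAST/EiJ and 22.4 ± 3.25 CPM in C57BL/6J (−0.86, SE 0.07, edgeR adjusted p = 2.15e-13). Psmb9, the partner of Psmb8 in the immunoproteasome, averaged 8.63 ± 2.96 CPM in CAST/EiJ and 9.25 ± 2.54 CPM in C57BL/6J, and its log2 fold change of −0.13 had a 95% interval from −0.36 to 0.11 (edgeR adjusted p = 0.349). That value averages over sexes that went opposite ways. Psmb9 averaged 11.4 ± 1.36 CPM in CAST/EiJ males and 8.75 ± 2.17 CPM in C57BL/6J males, but 6.21 ± 1.201 CPM in CAST/EiJ females and 9.75 ± 2.91 CPM in C57BL/6J females. Tap1 averaged 18.1 CPM in CAST/EiJ males and 24.9 CPM in C57BL/6J males, and 10.17 CPM in CAST/EiJ females and 24.2 CPM in C57BL/6J females. The strain difference was not tested within each sex; the test of whether the sex effect differed among strains is given with the results by sex.

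In NZO/HlLtJ livers the members went both ways against C57BL/6J. H2-Q7, H2-K1, H2-Q4, H2-D1 and H2-T23 were lower, H2-Q10, Psmb9 and Psmb8 were higher, and B2m and Tap1 did not pass the test. Among all genes 49.1% differed, 25.5% higher and 23.6% lower in NZO/HlLtJ, and the members' median log2 fold change was −0.14, against 0.00 over all genes. H2-Q7 ran from 1.26 over 3.54 to 4.24 CPM in NZO/HlLtJ, against 46.1 to 85.4 CPM in C57BL/6J (−4.29, SE 0.10, edgeR adjusted p = 3.01e-31). H2-K1 ran from 204 over 357 to 428 CPM in NZO/HlLtJ (−1.54, SE 0.07, edgeR adjusted p = 1.24e-21). H2-Q4 ran from 5.62 over 13.4 to 16.9 CPM in NZO/HlLtJ (−1.25, SE 0.09, edgeR adjusted p = 2.48e-15). These 3 genes were the members whose library ranges did not overlap those of C57BL/6J, against 3.78% of all genes and 1.71% in the lower direction.

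H2-Q10, the secreted class I gene, ran from 1865 over 3324 to 4025 CPM in NZO/HlLtJ and from 1379 over 1620.3 to 2163 CPM in C57BL/6J. It was 1.99-fold higher in NZO/HlLtJ (0.99, SE 0.06, edgeR adjusted p = 3.03e-17), and NZO/HlLtJ male 44% fat replicate 1 was the one NZO/HlLtJ library within the C57BL/6J range. H2-D1 averaged 288 ± 39.9 CPM in NZO/HlLtJ and 411 ± 38.0 CPM in C57BL/6J (SD, n = 16 each; −0.52, SE 0.06, edgeR adjusted p = 7.36e-10). Psmb8 averaged 29.8 ± 5.94 CPM in NZO/HlLtJ (0.41, SE 0.07, edgeR adjusted p = 6.77e-06) and Psmb9 averaged 13.05 ± 3.64 CPM (0.50, SE 0.11, edgeR adjusted p = 3.46e-04). Both lost their call in 3 of 12 alternatives (edgeR adjusted p up to 0.178 for Psmb8 and 0.236 for Psmb9). H2-T23, at 136 ± 23.8 CPM in NZO/HlLtJ and 153 ± 16.9 CPM in C57BL/6J, differed least among those called (−0.18, SE 0.06, edgeR adjusted p = 0.0078). On 10% fat alone its log2 fold change was −0.00, with an adjusted p of 1.00. B2m averaged 1015 ± 109.5 CPM in NZO/HlLtJ (0.05, 95% interval −0.05 to 0.14, edgeR adjusted p = 0.419) and Tap1 averaged 22.8 ± 5.05 CPM (−0.11, 95% interval −0.32 to 0.11, edgeR adjusted p = 0.436).

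Set against each other, NZO/HlLtJ livers had more transcript than CAST/EiJ livers of 9 members and less of H2-Q7. All 10 passed the test, where 68.1% of all genes did, 35.3% of all genes being higher and 32.8% lower in NZO/HlLtJ. The members' median log2 fold change was 0.68, against 0.01 over all genes. H2-Q10 differed most, at 4.799-fold higher in NZO/HlLtJ (2.26, SE 0.07, edgeR adjusted p = 4.56e-29), followed by H2-D1 (1.59), Psmb8 (1.28), H2-K1 (1.04), Tap1 (0.74), Psmb9 (0.62), H2-T23 (0.55), H2-Q4 (0.37) and B2m (0.35). Ranges of H2-D1, H2-Q10 and Psmb8 did not overlap, against 11.7% of all genes and 6.23% in the higher direction. H2-Q7 was lower in NZO/HlLtJ (−0.66, SE 0.10, edgeR adjusted p = 1.91e-07), but the sign turned when H2-Q7 was summed with H2-Q6, to 0.18 (SE 0.10, edgeR adjusted p = 0.118).

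**Figure D2:**
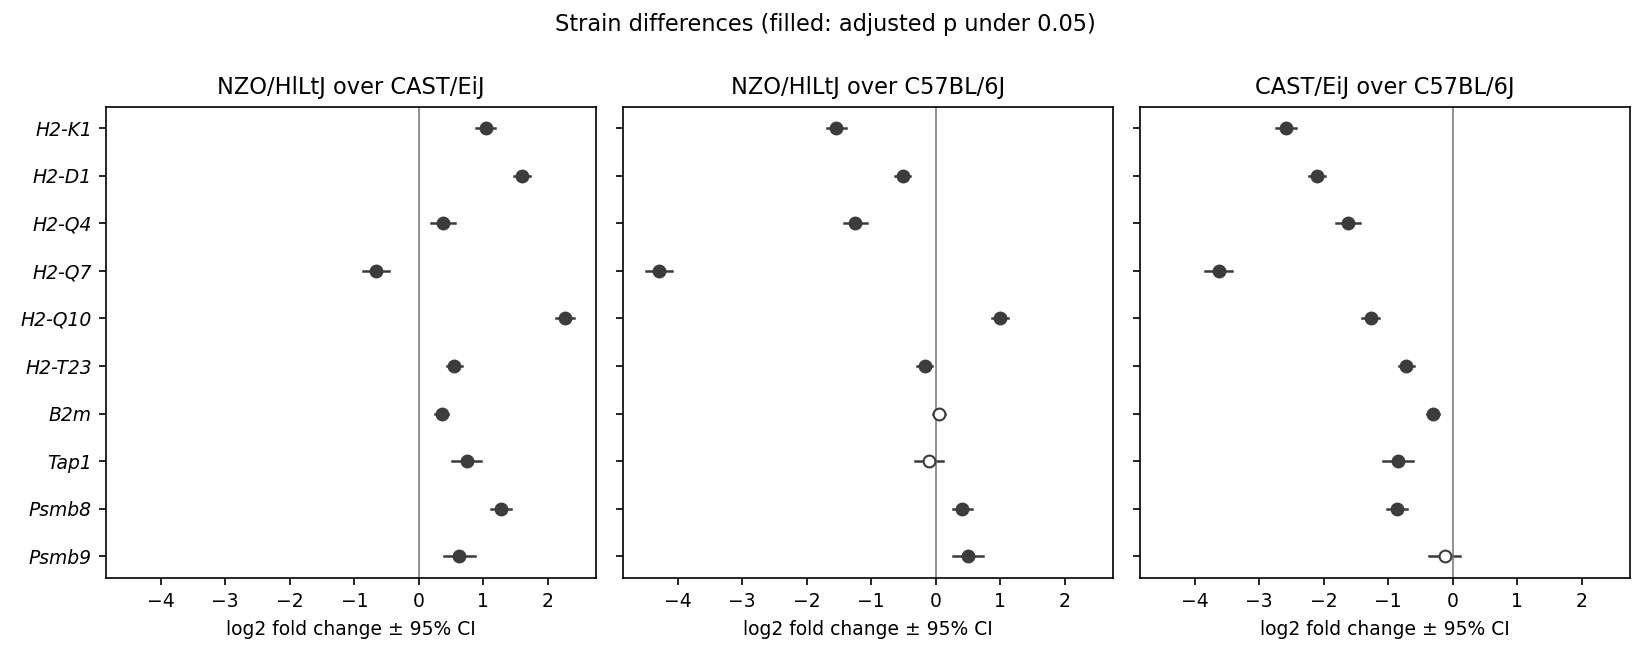
Log2 fold change between strains for each of the 10 genes (x axis, bars 95% confidence intervals, filled circles at an adjusted p under 0.05), with NZO/HlLtJ over CAST/EiJ on the left, NZO/HlLtJ over C57BL/6J in the middle and CAST/EiJ over C57BL/6J on the right. H2-Q7 lay at −4.29 and −3.63 against C57BL/6J, and H2-Q10 at 0.99 in NZO/HlLtJ and −1.27 in CAST/EiJ.

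Sequence shared between genes and overlapping genes limit how surely a count belongs to one member. The deposited counts of H2-D1, H2-Q4, H2-Q7 and H2-Q10 were fractional in all 47 libraries, those of H2-T23 in 42, H2-K1, Tap1 and Psmb9 in 36 each, Psmb8 in 3 and B2m in 0. A fraction arises when reads are divided among features. In the GRCm38 transcripts, 14.1% of the 100-base words of H2-Q4, 11.98% of H2-Q7, 8.01% of H2-Q10, 3.59% of H2-D1, 3.15% of H2-T23 and 0.957% of H2-K1 also occurred in another gene. H2-Q7 shared most with H2-Q10 (5.56% of its words), then with H2-Q5 (3.50%) and H2-Q6 (3.42%). A sum of H2-Q7 with H2-Q10 alone was not tested. Psmb8 shared 8.045% of its words, all with the gene model Gm20496, and B2m shared none. Psmb9 (2.73%) and Tap1 (1.93%) shared words with each other. Psmb9 and Tap1 overlap by 212 bases on opposite strands, and the sources used here do not give whether counting used strand. The genes H2-L, H2-Q8 and H2-Q9 were not analysed here.

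Strains differed both in the sum of the heavy chain counts and in its make-up. Added over the 18 heavy chain genes in the table, the level averaged 4191 ± 542 CPM in NZO/HlLtJ, 1090.0 ± 102 CPM in CAST/EiJ and 3462 ± 359.6 CPM in C57BL/6J (SD, n = 16, 15 and 16). The log2 difference was −1.66 (SE 0.06) for CAST/EiJ over C57BL/6J, 0.28 (SE 0.05) for NZO/HlLtJ over C57BL/6J and 1.94 (SE 0.06) for NZO/HlLtJ over CAST/EiJ. On 44% fat alone NZO/HlLtJ over C57BL/6J was 0.13 (SE 0.09, edgeR adjusted p = 0.289), and it did not pass in identifier run 1 (0.26) or run 2 (0.24) alone, the runs being 3 consecutive stretches of sample identifiers. H2-Q10 made up 78.1% of these counts in NZO/HlLtJ, 62.3% in CAST/EiJ and 47.7% in C57BL/6J. H2-K1 made up 8.35% in NZO/HlLtJ, 15.6% in CAST/EiJ and 29.5% in C57BL/6J, and H2-D1 made up 6.91% in NZO/HlLtJ, 8.80% in CAST/EiJ and 11.9% in C57BL/6J. These are shares of counts, not corrected for gene length. Exons cover 4348 bases in H2-Q10, 2938 in H2-K1 and 2579 in H2-D1, so the shares are not shares of transcript molecules. Without H2-Q10 the sum was lower in NZO/HlLtJ than in C57BL/6J, at 915 ± 133 CPM in NZO/HlLtJ, 409 ± 36.1 CPM in CAST/EiJ and 1807 ± 182 CPM in C57BL/6J, a log2 difference of −0.98 (SE 0.06) for NZO/HlLtJ over C57BL/6J; this sum was added after the values had been seen.

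**Figure D3:**
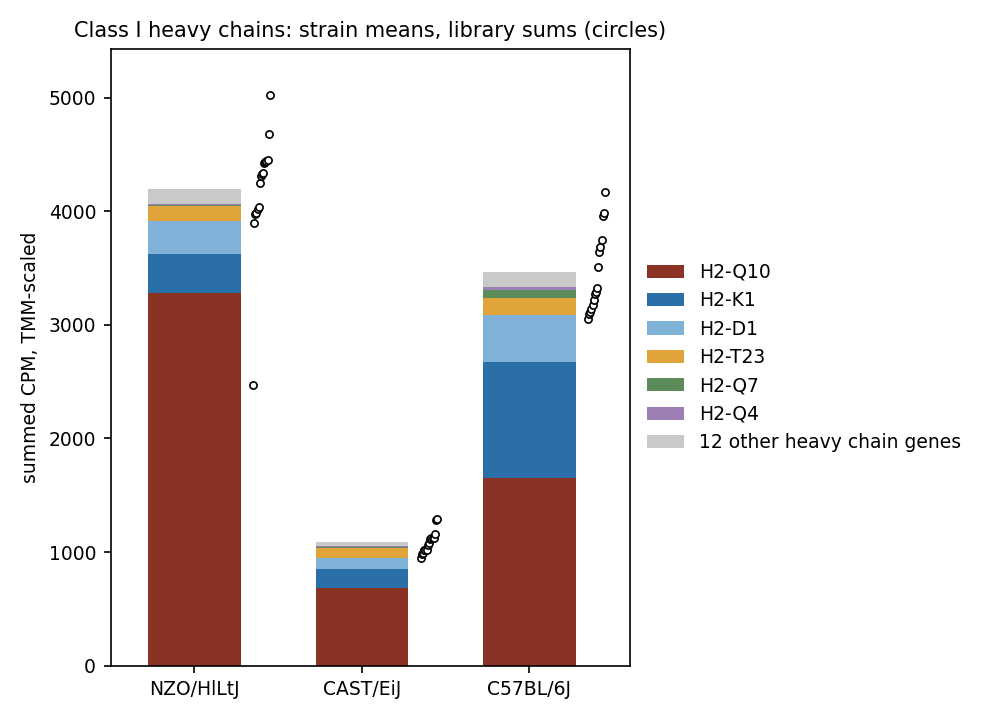
Summed level of the 18 class I heavy chain genes by strain (y axis in TMM-scaled CPM), as stacked strain means per gene with 1 open circle for the sum in each library. H2-Q10 forms most of the bar in NZO/HlLtJ (78.1%) and CAST/EiJ (62.3%) and 47.7% of it in C57BL/6J.

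Other class I and class I-like genes, 18 tested of 43 listed, also differed between strains in both directions. In CAST/EiJ 4 were higher and 11 lower than in C57BL/6J (median log2 fold change −0.51), in NZO/HlLtJ 8 were higher and 6 lower than in C57BL/6J (−0.07), and 10 were higher and 4 lower in NZO/HlLtJ than in CAST/EiJ (0.79). These are 15, 14 and 14 called genes of 18, in comparisons that called 67.9%, 49.1% and 68.1% of all genes. H2-T22, whose product is known as a ligand of gamma-delta T cells, averaged 87.6 CPM in NZO/HlLtJ, 8.36 CPM in CAST/EiJ and 76.3 CPM in C57BL/6J (−3.18 for CAST/EiJ over C57BL/6J, SE 0.06, edgeR adjusted p = 5.48e-36), with 31.5% of its 100-base words shared with other genes. H2-Q6 averaged 5.25 CPM in NZO/HlLtJ, 2.27 CPM in CAST/EiJ and 21.4 CPM in C57BL/6J. H2-Q1 averaged 0.0502 CPM in NZO/HlLtJ, 0.0223 CPM in CAST/EiJ and 13.6 CPM in C57BL/6J. Cd1d2, a CD1 gene of lipid antigen presentation, averaged 0.782 CPM in NZO/HlLtJ, 6.02 CPM in CAST/EiJ and 0.0701 CPM in C57BL/6J.

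Of 31 other genes of peptide generation, transport and loading, 9 were higher and 14 lower in CAST/EiJ than in C57BL/6J (median −0.05), 6 higher and 11 lower in NZO/HlLtJ than in C57BL/6J (−0.06), and 11 higher and 9 lower in NZO/HlLtJ than in CAST/EiJ (0.02). These counts of 23, 17 and 20 called genes are near the shares of all genes, which were 67.9% for CAST/EiJ over C57BL/6J, 49.1% for NZO/HlLtJ over C57BL/6J and 68.1% for NZO/HlLtJ over CAST/EiJ. Tap2, the partner chain of Tap1, averaged 43.7 CPM in NZO/HlLtJ, 27.9 CPM in CAST/EiJ and 21.3 CPM in C57BL/6J, a log2 fold change of 1.04 for NZO/HlLtJ over C57BL/6J (SE 0.05, edgeR adjusted p = 1.27e-21) where Tap1 did not pass. Psme1 and Psme2, subunits of the PA28 proteasome activator, were lower in CAST/EiJ than in C57BL/6J (−0.41 and −0.51). Of 24 regulators of interferon signalling and class I transcription, 4 were higher and 15 lower in CAST/EiJ than in C57BL/6J (median −0.30), and 2 higher and 8 lower in NZO/HlLtJ than in C57BL/6J (−0.14), the 10 called there being a smaller share than the 49.1% of all genes. Nlrc5, the transactivator of class I genes, averaged 12.8 CPM in NZO/HlLtJ, 5.53 CPM in CAST/EiJ and 20.2 CPM in C57BL/6J, lower in CAST/EiJ (−1.87, SE 0.11, edgeR adjusted p = 6.07e-18) and in NZO/HlLtJ (−0.66, SE 0.10, edgeR adjusted p = 1.66e-06). Irf9, part of the type I interferon signalling complex (−1.10), and Ifngr2, a chain of the interferon-gamma receptor (−1.12), were also lower in CAST/EiJ than in C57BL/6J.

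Interferon response genes and immune cell markers moved with the CAST/EiJ difference. Of 37 interferon response genes, 1 was higher and 34 lower in CAST/EiJ than in C57BL/6J (median −1.59), 13 were higher and 7 lower in NZO/HlLtJ than in C57BL/6J (−0.00), and 34 were higher and 2 lower in NZO/HlLtJ than in CAST/EiJ (1.89). Their summed level was 614 to 1201 CPM in NZO/HlLtJ, 251 to 389 CPM in CAST/EiJ and 607 to 1173 CPM in C57BL/6J. Of 13 Kupffer cell and macrophage markers, 12 were lower in CAST/EiJ and 7 in NZO/HlLtJ than in C57BL/6J, with summed levels of 257 to 728 CPM in NZO/HlLtJ, 154 to 485 CPM in CAST/EiJ and 322 to 616 CPM in C57BL/6J. Of 18 T, NK and B cell markers, 15 were lower and 1 higher in CAST/EiJ than in C57BL/6J, with summed levels of 17.6 to 40.4 CPM in NZO/HlLtJ, 12.2 to 21.7 CPM in CAST/EiJ and 21.5 to 41.6 CPM in C57BL/6J; up to 5 of the 18 were at 0 in a CAST/EiJ library. Over all genes, 35.3% were lower in CAST/EiJ than in C57BL/6J, of 67.9% called. Against C57BL/6J 25.5% were higher and 23.6% lower in NZO/HlLtJ, and against CAST/EiJ 35.3% were higher and 32.8% lower. In whole liver, fewer cells of a type and less RNA per cell cannot be told apart, and the part of these cells in the members' levels was not tested.

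CAST/EiJ males had more Tap1, Psmb9, Psmb8 and H2-Q7 transcript than females and less B2m, so 5 of the 10 members passed the test there, where 30.3% of all genes did, 16.1% higher and 14.2% lower in males. Tap1 ran from 14.7 over a median of 18.6 to 21.6 CPM in the 7 male libraries and from 7.94 over 10.09 to 13.3 CPM in the 8 female libraries of CAST/EiJ (0.83, SE 0.16, edgeR adjusted p = 1.03e-04). Psmb9 ran from 10.07 over 11.3 to 14.1 CPM in males and from 5.04 over 5.92 to 8.69 CPM in females (0.87, SE 0.17, edgeR adjusted p = 1.08e-04). H2-Q7 ran from 5.13 over 6.34 to 11.3 CPM in males and from 3.06 over 3.71 to 4.69 CPM in females (0.96, SE 0.14, edgeR adjusted p = 8.84e-07). Males and females did not overlap for these 3 genes, against 8.08% of all genes and 4.22% in the higher direction.

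Psmb8 ran from 11.4 over 15.8 to 16.5 CPM in CAST/EiJ males and from 7.99 over 9.50 to 13.96 CPM in females, with some overlap (0.61, SE 0.11, edgeR adjusted p = 2.51e-05). B2m ran from 688 over 738 to 786 CPM in males and from 777 over 853 to 944 CPM in females, with some overlap (−0.22, SE 0.07, edgeR adjusted p = 0.0146). These 5 genes passed when any 1 of the 47 libraries was left out. The labels name no batch. Fitted within each identifier run, the sign was the same in every run for all 5 genes, at 0.31, 1.22 and 0.78 for Tap1 in runs 1, 2 and 3, while 0, 4 and 3 of the 10 members passed. All 13 Kupffer cell and macrophage markers were lower in CAST/EiJ males (154 to 256 CPM summed in males, 258 to 485 CPM in females). So were 7 of 12 MHC class II genes, with 0 higher. Of 18 T, NK and B cell markers 1 was higher and 2 were lower (15.4 to 21.6 CPM summed in males, 12.2 to 21.7 CPM in females). Among 24 regulators of interferon signalling and class I transcription 5 were higher and 6 lower. Over all genes 16.1% were higher and 14.2% lower in CAST/EiJ males. Of 37 interferon response genes 4 were higher and 14 lower in CAST/EiJ males. The hepatocyte markers summed to 63593 to 94789 CPM in males and 101063 to 137613 CPM in females. The part of these shifts in the members' levels was not tested.

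**Figure D4:**
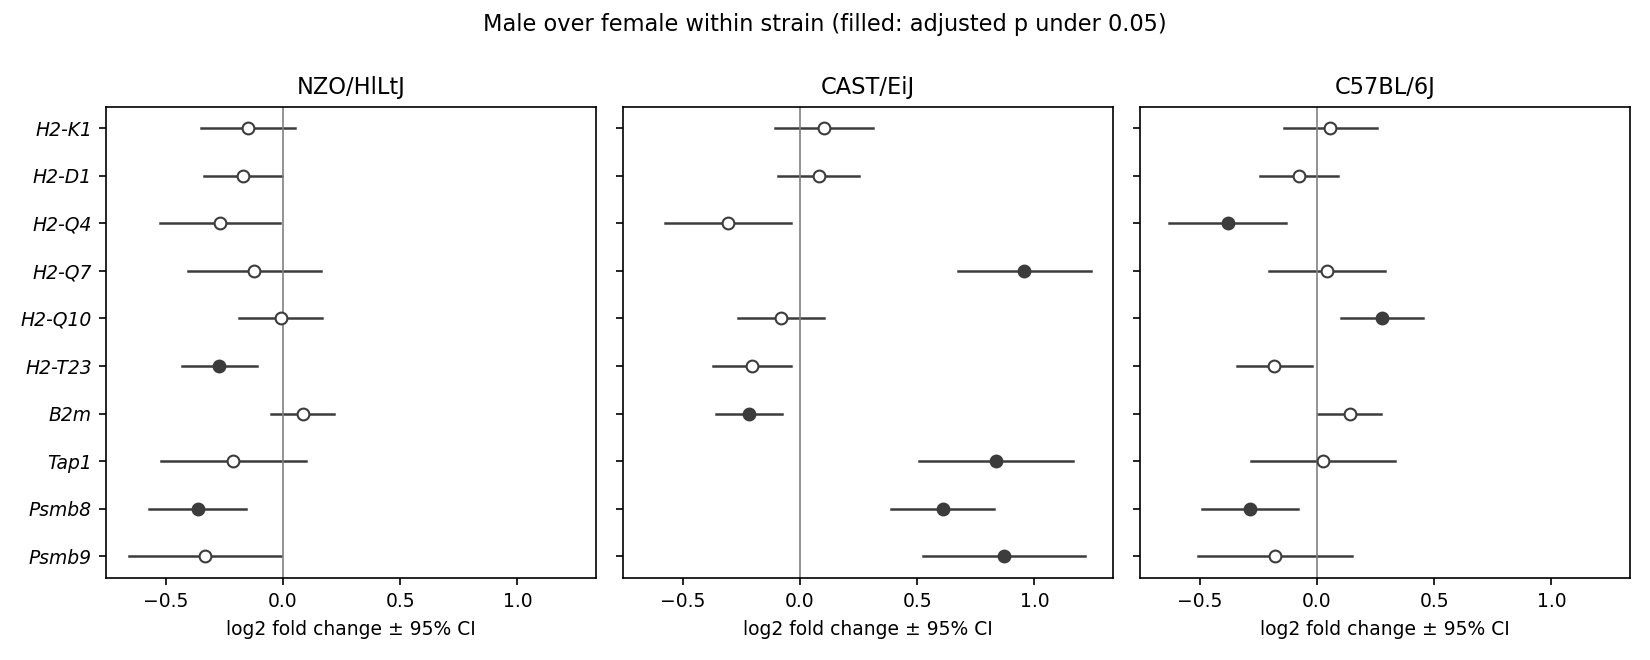
Log2 fold change of males over females within each strain for the 10 genes (x axis, bars 95% confidence intervals, filled circles at an adjusted p under 0.05). In CAST/EiJ Tap1, Psmb8, Psmb9 and H2-Q7 lay between 0.61 and 0.96, while in NZO/HlLtJ and C57BL/6J these 4 genes lay between −0.36 and 0.04.

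The sex effect itself differed among strains for these 5 genes, by a joint test of the sex-by-strain terms that 13.6% of all genes passed. Its edgeR adjusted p was 4.74e-06 for Psmb8, 1.40e-04 for H2-Q7, 3.88e-04 for Psmb9, 0.00196 for Tap1 and 0.0148 for B2m, and each passed under every alternative tried for this test. Psmb8 was lower in males in the other two strains, at 26.05 ± 4.20 CPM in NZO/HlLtJ males and 33.6 ± 5.08 CPM in NZO/HlLtJ females (SD, n = 8 each; −0.36, SE 0.10, edgeR adjusted p = 0.00894). In C57BL/6J it averaged 20.2 ± 1.96 CPM in males and 24.6 ± 2.79 CPM in females (−0.28, SE 0.10, edgeR adjusted p = 0.0475).

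In NZO/HlLtJ 2 members passed, Psmb8 and H2-T23, both lower in males, against 17.2% of all genes in either direction and 9.31% lower in males. H2-T23 ran from 94.2 over 128 to 148 CPM in males and from 125 over 142 to 197 CPM in females (−0.27, SE 0.08, edgeR adjusted p = 0.012). In C57BL/6J 3 members passed, against 16.8% of all genes, 8.1% higher and 8.7% lower in males: Psmb8 and H2-Q4 were lower in males, and H2-Q10 was higher. H2-Q4 ran from 23.1 over 27.2 to 32.2 CPM in males and from 28.4 over 36.3 to 37.7 CPM in females (−0.38, SE 0.12, edgeR adjusted p = 0.0277). H2-Q10 ran from 1537 over 1690.4 to 2163 CPM in males and from 1379 over 1471 to 1632 CPM in females (0.28, SE 0.09, edgeR adjusted p = 0.022). The 3 calls in C57BL/6J were lost without the 5 libraries with acinar transcripts (edgeR adjusted p = 0.0571 for H2-Q4, 0.158 for H2-Q10 and 0.107 for Psmb8). Most of these 5 were C57BL/6J libraries, so that fit also held fewer libraries of this strain. The parts of the acinar transcripts and of the smaller number in the lost calls were not tested. Leaving out single libraries lost Psmb8 in 26 of 47 fits. H2-Q4 was lost without replicate 1, 3 or 4 of the C57BL/6J males on 10% fat, or replicate 1 or 4 of the females on that diet (adjusted p up to 0.0624), and H2-Q10 without C57BL/6J male 44% fat replicate 1 (0.0523). Within runs, 0, 0 and 2 members passed in C57BL/6J and 0 in run 1 of NZO/HlLtJ, where the other runs confound sex with diet.

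Among peptide loading genes outside the 10 members, Lap3, a leucine aminopeptidase, was higher in males of NZO/HlLtJ (0.54), CAST/EiJ (0.20) and C57BL/6J (0.47), and Tapbp, tapasin, which joins class I molecules to the transporter, was lower in males of NZO/HlLtJ (−0.43), CAST/EiJ (−0.31) and C57BL/6J (−0.44). Tap2 was lower in males of NZO/HlLtJ (−0.35) and C57BL/6J (−0.40). Tpp2, a large cytosolic peptidase, was higher in CAST/EiJ males (0.56). In all, 2 of the 31 loading genes were higher and 3 lower in NZO/HlLtJ males, 5 higher and 2 lower in CAST/EiJ males, and 8 higher and 3 lower in C57BL/6J males. The 5 genes called in NZO/HlLtJ and the 7 in CAST/EiJ are shares of the 31 that lie below the 17.2% and 30.3% of all genes called there, and the 11 in C57BL/6J stand beside 16.8% of all genes. Of 37 interferon response genes 21 were lower in NZO/HlLtJ males and 20 in C57BL/6J males, with 0 higher in either; Zbp1, a sensor of nucleic acids, had a log2 fold change of −1.37 in NZO/HlLtJ and −1.34 in C57BL/6J. Of 13 Kupffer cell and macrophage markers 13 were lower in NZO/HlLtJ males and 9 in C57BL/6J males.

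No member passed the test for diet in any strain. On 44% fat against 10% fat, edgeR called 0 of 10 members in each strain, where it called 5.64% of all genes in NZO/HlLtJ, 0.895% in CAST/EiJ and 0.991% in C57BL/6J. At an unadjusted p under 0.05 there was 1 member in NZO/HlLtJ, 3 in CAST/EiJ and 3 in C57BL/6J. Of all 16650 genes tested, 3193 in NZO/HlLtJ, 1966 in CAST/EiJ and 2088 in C57BL/6J had such a p. DESeq2 called 1 in NZO/HlLtJ, 1 in CAST/EiJ and 0 in C57BL/6J, and limma on the deposited log2 values called 0 in each. The members' median log2 fold change was −0.08 in NZO/HlLtJ, −0.07 in CAST/EiJ and 0.17 in C57BL/6J, against 0.00 in NZO/HlLtJ, 0.00 in CAST/EiJ and 0.01 in C57BL/6J over all genes. In C57BL/6J all 10 were above 0, between 0.11 and 0.39, with a lowest edgeR adjusted p of 0.214 for B2m, which averaged 1046 ± 98.4 CPM on 44% fat and 922 ± 98.1 CPM on 10% fat (SD, n = 8 each; 0.18, 95% interval 0.05 to 0.31).

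In CAST/EiJ the lowest adjusted p was that of H2-Q4, at 5.82 to 11.6 CPM on 44% fat and 8.82 to 13.8 CPM on 10% fat (−0.43, SE 0.13, edgeR adjusted p = 0.102; DESeq2 adjusted p = 0.0488). In NZO/HlLtJ it was that of H2-T23, at 94.2 to 167 CPM on 44% fat and 129.6 to 197 CPM on 10% fat (−0.24, SE 0.08, edgeR adjusted p = 0.0658; DESeq2 adjusted p = 0.0433). Both genes overlapped between diets. Leaving out NZO/HlLtJ male 44% fat replicate 1 brought H2-Q4 in CAST/EiJ past the threshold (edgeR adjusted p = 0.0417). All strains shared 1 fit, and the cause of this change was not tested. H2-T23 in NZO/HlLtJ passed without any one of 4 libraries: replicate 2 of NZO/HlLtJ males on 44% fat, replicate 1 of NZO/HlLtJ females on 44% fat, replicate 2 of NZO/HlLtJ females on 10% fat, and replicate 2 of CAST/EiJ females on 10% fat (adjusted p from 0.0202 to 0.0423). The intervals of H2-K1 ran from −0.26 to 0.14 in NZO/HlLtJ, from −0.30 to 0.11 in CAST/EiJ and from −0.03 to 0.37 in C57BL/6J. Those of Psmb9 were wider and reached 0.58 in NZO/HlLtJ, 0.48 in CAST/EiJ and 0.72 in C57BL/6J.

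**Figure D5:**
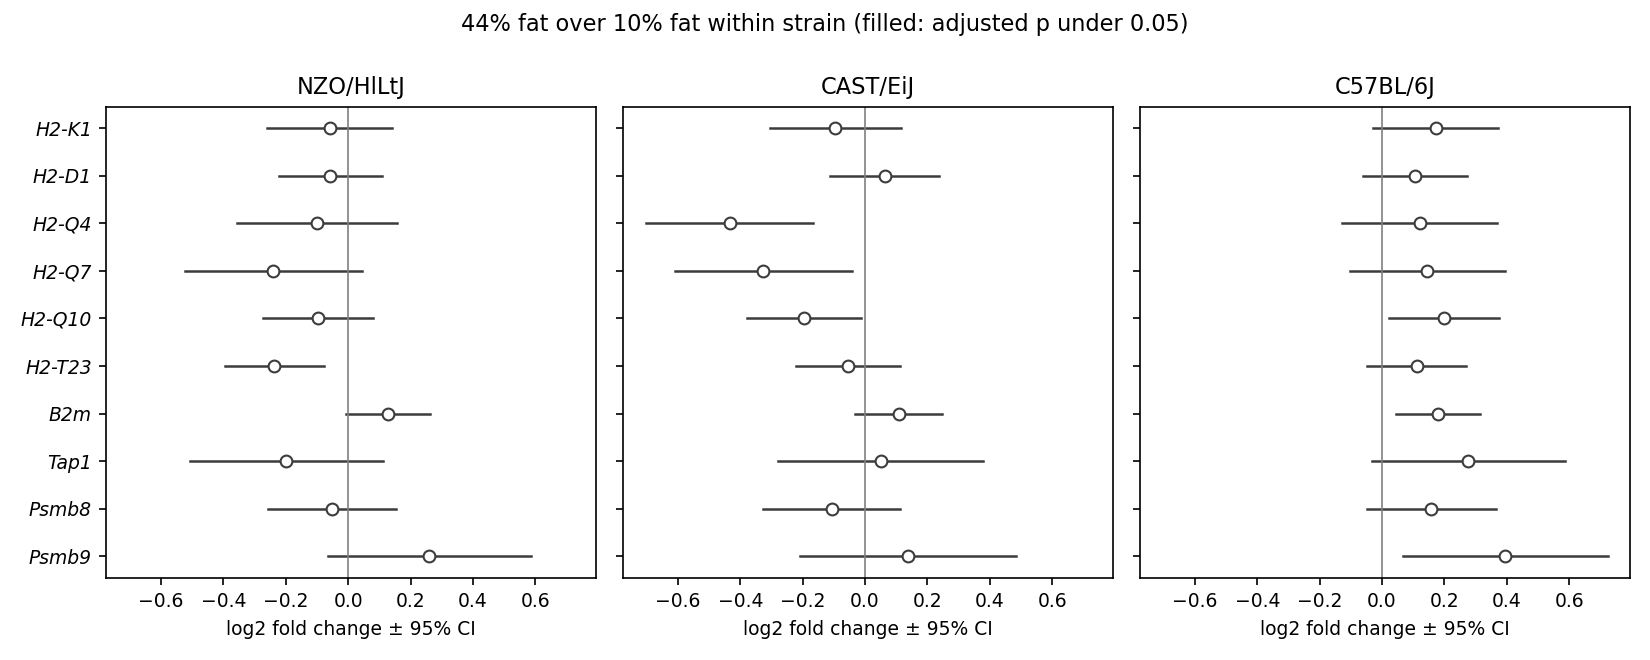
Log2 fold change of 44% fat over 10% fat within each strain for the 10 genes (x axis, bars 95% confidence intervals, open circles not past an adjusted p of 0.05). No member was called, and the values ran from −0.24 to 0.26 in NZO/HlLtJ, from −0.43 to 0.14 in CAST/EiJ and from 0.11 to 0.39 in C57BL/6J.

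Neither the sexes nor the strains differed in diet effect for any member past the threshold. The sex-by-diet term called 0 of 10 members in each strain (0.018% of all genes in NZO/HlLtJ, 0% in CAST/EiJ and 0.0841% in C57BL/6J), and 0 by DESeq2. At an unadjusted p under 0.05 it had 1 member in NZO/HlLtJ, 0 in CAST/EiJ and 0 in C57BL/6J. Of all 16650 genes tested, 1100 in NZO/HlLtJ, 669 in CAST/EiJ and 950 in C57BL/6J had such a p. The joint diet-by-strain test called 0 members and 8 genes in all (0.048%), with a lowest edgeR adjusted p among members of 0.279, for H2-Q10. At an unadjusted p under 0.05 it had 4 of the 10 members and 1758 of all 16650 genes. DESeq2 called 0 members and 154 genes. Of the other class I and loading genes, Psma1 (0.22) and Pomp (0.24), a proteasome subunit and a proteasome assembly factor, rose on 44% fat in C57BL/6J, Lap3 rose (0.32) and Cd1d2 fell in NZO/HlLtJ, and none was called in CAST/EiJ.

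Within groups, members varied together to different degrees. Over the 47 libraries, after each group mean had been subtracted from log2 CPM, H2-K1 correlated with H2-D1 at r = 0.88 and with B2m at r = 0.87, Tap1 with Psmb9 at r = 0.80, and H2-Q10 with H2-T23 at r = 0.10. Tap1 and Psmb9 share bases, and all these points share library depth. Of 10364 genes with a mean of at least 1 log2 CPM, those most like the mean of B2m, Tap1, Psmb8 and Psmb9 included Psmb10, the other catalytic subunit of the immunoproteasome (r = 0.72), H2-T22 (0.72), Tap2 (0.70), the apolipoprotein gene Apof (0.70), Rtp4 (0.68), Uba7 (0.66) and Xaf1 (0.66). Without the 2 libraries farthest from the median, r for these genes lay between 0.60 and 0.73. The genes most like H2-Q10 were Dbi, an acyl-CoA binding protein (0.87), the mitochondrial citrate carrier Slc25a1 (0.83), the fatty acid desaturase Fads1 (0.82) and the thiolase Acat2 (0.81), or 0.73 to 0.80 without its 2 farthest libraries, of which one was again NZO/HlLtJ male 44% fat replicate 1.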

How the data were processed

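Polyadenylated RNA from liver was sequenced as paired ends on a NovaSeq with KAPA mRNA HyperPrep libraries, per the labels' protocols. The authors deposited expected counts per gene, of which 20.3% were not whole numbers (tolerance 1e-06), and variance-stabilized log2 values. GRCm38 and DESeq2 are named in the submitters' processing notes; the sources used here do not give the aligner, the counter, the annotation or whether counting used strand. 0 columns of other samples were found.

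Expected counts were rounded to whole numbers. Genes kept by edgeR's filterByExpr over the 12 groups (16650 of 20320) were scaled by TMM and tested in 1 fit over 47 libraries with edgeR 4.0.16 (R 4.3.3; robust quasi-likelihood F test, 1 mean per group, 35 residual degrees of freedom). Strain, sex and diet differences average the groups equally. P-values were Benjamini-Hochberg adjusted over all genes tested and called under 0.05. Levels are TMM-scaled CPM with SD over libraries. SE was derived as the size of the log2 fold change divided by the square root of the F statistic. The 95% intervals use this SE and 35 residual degrees of freedom. The p-values also use prior degrees of freedom, so intervals and p-values need not match exactly. The procedure was tested on simulated data with planted changes. Depth was 21.6 to 47.8 M counts per library. No 2 libraries of a group agreed within counting noise. Identifier runs held 16, 16 and 15 libraries.

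Alternatives were DESeq2 1.42.0, RLE scaling, no filter, a filter of 1 CPM in 4 libraries, and limma 3.58.1 on the deposited log2 values. Each library was left out, and the identifier run was used as covariate or each run alone. Each strain or diet was fitted alone. Further alternatives left out the 5 libraries with Cpa1 at 20 CPM or more, or summed related heavy chain genes. Gene models were from GENCODE M21 and promoters from RefSeq. The 10 members and all gene lists were chosen with earlier results of these data known. From other lists the text names up to 3 called genes per list and comparison, by smallest p, and the 8 and 4 genes most correlated with the members' means or with H2-Q10. One gene that this rule names is not reported here. Levels were not compared between genes, except as shares of summed heavy chain counts.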

Additional observations from a re-analysis of the deposited data

Results flagged for a closer look

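The sex effect of 5 members differed among the strains by edgeR's joint test. For Psmb8 (adjusted p = 4.74e-06) the male over female log2 fold change was −0.36 in NZO/HlLtJ, 0.61 in CAST/EiJ and −0.28 in C57BL/6J. For H2-Q7 (adjusted p = 1.40e-04) it was −0.12 in NZO/HlLtJ, 0.96 in CAST/EiJ and 0.04 in C57BL/6J. For Psmb9 (adjusted p = 3.88e-04) it was −0.33 in NZO/HlLtJ, 0.87 in CAST/EiJ and −0.18 in C57BL/6J. For Tap1 (adjusted p = 0.00196) it was −0.21 in NZO/HlLtJ, 0.83 in CAST/EiJ and 0.03 in C57BL/6J. For B2m (adjusted p = 0.0148) it was 0.08 in NZO/HlLtJ, −0.22 in CAST/EiJ and 0.14 in C57BL/6J. CAST/EiJ had the value farthest from 0 for each of these 5 genes. H2-Q10 passed this test without CAST/EiJ male 10% fat replicate 1, NZO/HlLtJ male 44% fat replicate 1 or C57BL/6J male 44% fat replicate 3 (adjusted p from 0.0299 to 0.0451; 0.0858 with all libraries).

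H2-Q4 in C57BL/6J male 10% fat replicate 2 was 32.2 CPM, apart from the other 3 libraries of its group at 23.1 to 24.1 CPM. That library is one of those with pancreatic acinar transcripts; their part in the value was not tested. It was the 1 value to stand apart in 110 combinations of gene and group examined, where chance gives about 1 in 20.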

How the results depend on the processing

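Counts of members called in the strain comparisons stayed at 9 (CAST/EiJ over C57BL/6J), 8 (NZO/HlLtJ over C57BL/6J) and 10 (NZO/HlLtJ over CAST/EiJ) when each of the 47 libraries was left out, with DESeq2 and with limma. Identifier runs 1, 2 and 3 alone gave 8, 8 and 9 members for CAST/EiJ over C57BL/6J, 5, 5 and 5 for NZO/HlLtJ over C57BL/6J and 8, 8 and 9 for NZO/HlLtJ over CAST/EiJ; 10% fat alone gave 9, 7 and 9. Members called under all settings tried numbered 7 of 9, 5 of 8 and 6 of 10. B2m (adjusted p = 0.263 in run 1) and Tap1 (0.0563 in run 2) were lost for CAST/EiJ over C57BL/6J, and H2-Q4, H2-Q7, Psmb9 and Tap1 in 1 or more settings for NZO/HlLtJ over CAST/EiJ. For NZO/HlLtJ over C57BL/6J, H2-T23 was lost in 4 of 12 alternatives, and Psmb8 and Psmb9 in 3 of 12 each. For diet, left-out libraries gave 0 to 1 in NZO/HlLtJ, 0 to 1 in CAST/EiJ and 0 to 0 in C57BL/6J. DESeq2 gave 1 in NZO/HlLtJ and 1 in CAST/EiJ. NZO/HlLtJ gave 1 without the acinar libraries, although none of these was an NZO/HlLtJ library. For sex, left-out libraries gave 2 to 3, 5 to 7 and 1 to 4 in NZO/HlLtJ, CAST/EiJ and C57BL/6J; run 1 alone gave 0 in each, run 2 alone 0 in C57BL/6J, run 3 alone 3 in CAST/EiJ, and C57BL/6J gave 0 without the acinar libraries. The joint sex-by-strain count lay between 5 and 6, and the joint diet-by-strain and sex-by-diet counts at 0, over left-out libraries. The cause of these shifts was not tested. Runs alone hold fewer libraries, as does C57BL/6J without the acinar libraries.

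The summed heavy chain difference of NZO/HlLtJ over C57BL/6J was 0.13 on 44% fat alone, 0.26 in run 1 and 0.24 in run 2, none past the threshold, and −0.98 without H2-Q10; over left-out libraries the 3 sums lay at −1.69 to −1.64, 0.26 to 0.31 and 1.92 to 1.98. H2-Q7 in NZO/HlLtJ over CAST/EiJ turned to 0.18 when summed with H2-Q6. Among all genes, DESeq2 called 325 for diet in CAST/EiJ and 336 in C57BL/6J, against 149 and 165 by edgeR, 154 against 8 in the joint diet-by-strain test, and 42 against 3, 14 against 0 and 21 against 14 for sex-by-diet in NZO/HlLtJ, CAST/EiJ and C57BL/6J. Left-out libraries gave 532 to 1178, 30 to 419 and 56 to 369 genes for diet in NZO/HlLtJ, CAST/EiJ and C57BL/6J. No paired analysis was possible because the labels give no replicate numbers. H2-Q7 lay at a few CPM in NZO/HlLtJ and CAST/EiJ.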
